A study of Homo sapiens with 12 samples.

Results

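Gene expression was compared between xenograft tumours of Cal33 given SW-682, a small molecule inhibitor of TEAD proteins, and tumours given vehicle only. The members are the 6 of 12 samples in the series that its labels place in these groups, 3 with SW-682 (labelled smTEADi 1 to 3) and 3 with vehicle (labelled Vehicle 1 to 3). Cal33 is an established human line of head and neck squamous cell carcinoma. The other 6 samples are Cal33 tumours of a separate experiment, 3 in which doxycycline was given to switch on an inhibitor named pTEADi and 3 controls without doxycycline. Dose, length of treatment, host strain and whether the 3 tumours of a group grew in separate animals are not given in the sources used here, so the p-values measure the spread between these tumour samples, and the groups stand for 1 cell line. Poly-A RNA was sequenced in paired reads of 150 bases, and 14829 genes with enough counts were tested.

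TEAD proteins bind DNA and recruit the co-activators YAP and TAZ, which the Hippo kinases keep out of the nucleus when cells are crowded or detached. In squamous epithelium, YAP and TAZ act with TEAD in the basal layer, where they keep cells dividing and attached to the basement membrane, and their activity declines as cells move up and differentiate. The best-known target genes, such as CCN1, are a small part of what TEAD inhibition can change, so the genes below are grouped by process.

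Levels are given as CPM, counts relative to the TMM-scaled total of each library. A log2 fold change is SW-682 over vehicle ± SE from edgeR's quasi-likelihood test, with p-values adjusted over all genes tested by the Benjamini-Hochberg method. A gene is said to rise or fall where the adjusted p was under 0.05. By that rule 816 genes (5.5%) were called, of which 300 (2.02% of those tested) rose and 516 (3.48%) fell, with medians of 0.84 and -0.90, and the median over all genes tested was 0.01. A change of more than 2-fold was seen in 111 of the genes that rose and 208 of those that fell. The calls crowd at the threshold: the smallest adjusted p was 0.0365, shared by 208 genes. By edgeR no gene passed 0.01, while 4128 had an unadjusted p under 0.05, and at an adjusted p under 0.05 DESeq2 called 1893 and limma 841. In bulk tumours fewer cells of a type and less RNA per cell cannot be told apart, which holds for every group of genes below. Library totals ran from 13576494 to 15433679 expected counts.

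Of the 6 tumours, smTEADi 1 and Vehicle 2 stood apart from their groups on the first principal component, and both lay further toward the SW-682 side than their partners. The first principal component of log2 CPM (53.3% of the variance) placed smTEADi 1 at 55.7 and smTEADi 2 and 3 at 15.3 and 10.6. Vehicle 2 was at -7.23 on the same axis, and Vehicle 1 and 3 were at -33.8 and -40.5. In 60.6% of genes smTEADi 1 was the highest or the lowest of the 6 libraries. That share was 43.6% for Vehicle 3, 33.9% for Vehicle 1, 23.5% for smTEADi 3, 21.5% for Vehicle 2 and 16.7% for smTEADi 2. Vehicle 2 lay nearer to the mean of the SW-682 group than to that of Vehicle 1 and 3 in 47.5% of genes, little more than smTEADi 3 and smTEADi 2 for the opposite group (43.2% and 41.9%). Among the 816 genes called it did so in 100, against 43 for smTEADi 2 and 17 for smTEADi 3. On the second component (14.5% of the variance) smTEADi 3 was the farthest from its group, at -29.3, and it was over 2-fold from the rest of its group in 535 genes, as was Vehicle 2 in 537 and smTEADi 1 in 708. Library quality weights from limma, in which a lower value marks a library further from its group, were 0.430 for smTEADi 1 and 0.702 for Vehicle 2, against 1.09 to 1.66 for the other 4.

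**Figure D1:**
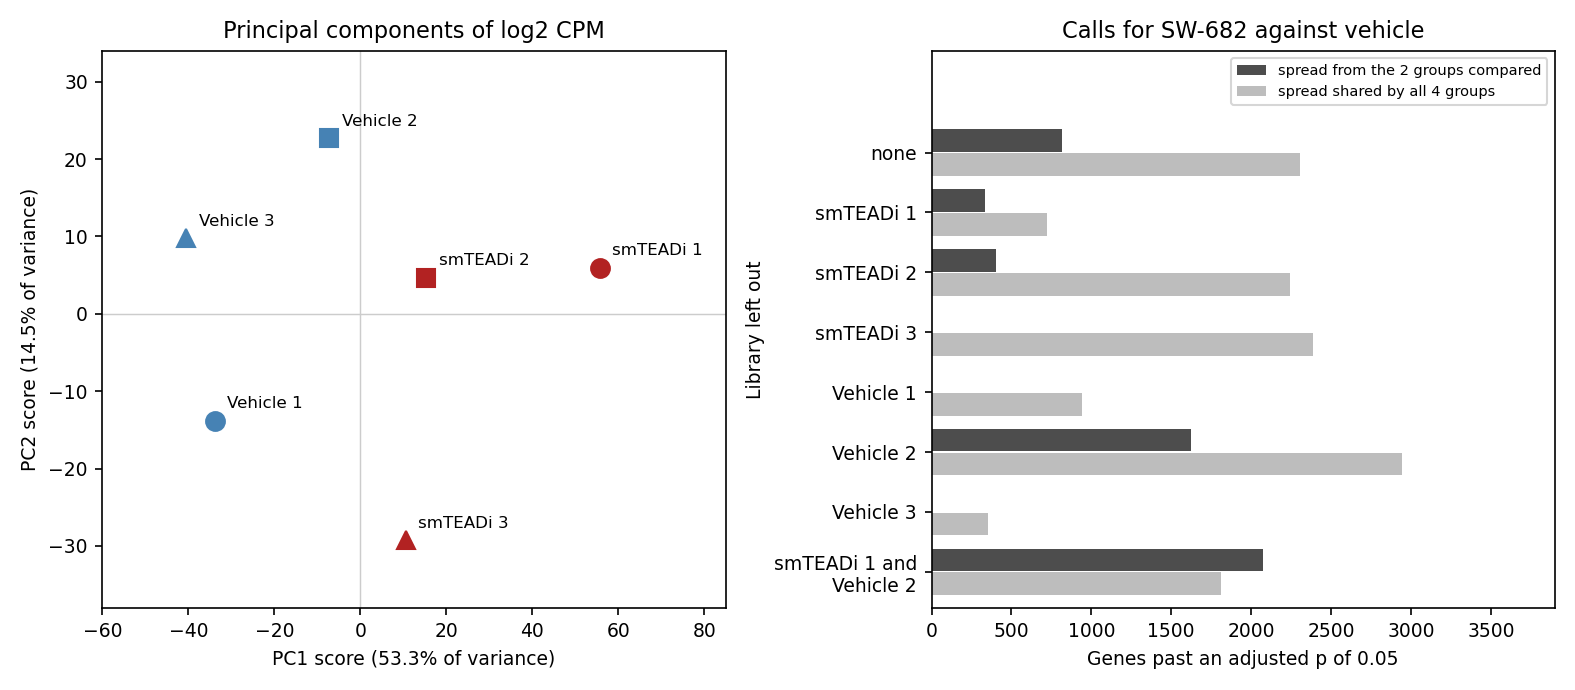
Left, the first and second principal components of log2 CPM for the 6 libraries (red, SW-682; blue, vehicle; the marker shape gives the replicate number). Right, the number of genes past an adjusted p of 0.05 when the library named on the axis is left out, with the spread taken from these groups alone (dark bars) or from all 12 libraries (light bars); the dark bars run from 0 to 2073.

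The effect of the pair on fold changes was in opposite directions. Leaving out smTEADi 1 shrank the 816 fold changes to a median of 0.84 times their size and left 335 calls (90 rose, 245 fell). Leaving out Vehicle 2 raised them to 1.11 times and gave 1622 calls (801 rose, 821 fell). Without both, the fold changes were 0.948 times their size, 2073 genes were called (1016 rose, 1057 fell), and 797 of the 816 were among them. These 2 libraries had the lowest quality weights, so removing them favours a narrower spread within groups. The higher counts without both, here and below, are therefore no separate support. The other libraries also decided the count. It was 402 without smTEADi 2, and edgeR called 0 genes without smTEADi 3, Vehicle 1 or Vehicle 3, although 4123, 3079 and 2465 genes then had an unadjusted p under 0.05. Every count of called genes in a list below is therefore also 0 when any 1 of those 3 is left out. With the spread estimated from all 12 libraries, a setting chosen after seeing the data, the counts without smTEADi 3, Vehicle 1 and Vehicle 3 were 2386, 943 and 354. All 816 fold changes kept their sign in each of these fits. That was all but fixed beforehand, since the groups did not overlap in any of the 816, so it is no sign of stability.

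The YAP/TAZ target list holds genes that YAP and TAZ are known to bind and raise. Of 20 members tested 6 fell and none rose, and the groups did not overlap in 9 lower and 1 higher members (17.3% and 15.7% of all genes). The list median was -0.27, and it was -0.35 without smTEADi 1, -0.32 without Vehicle 2 and -0.30 without both, with 8 lower and 1 higher called in the last case. CCN1, a secreted matrix protein (ENSG00000142871.18, GRCh38 chromosome 1, 85580761 to 85584589, plus strand), measured 8.60, 15.5 and 13.4 CPM in smTEADi 1 to 3 and 40.2, 33.5 and 34.5 CPM in Vehicle 1 to 3. Every SW-682 library was under every vehicle library, smTEADi 1 lowest, and the log2 fold change was -1.52 ± 0.20 (adjusted p = 0.0365; -1.36 without smTEADi 1 and Vehicle 2). NT5E, which makes extracellular adenosine, fell by most (-1.88 ± 0.37), from 13.4, 18 and 28.2 CPM in Vehicle 1 to 3 to 3.56, 8.79 and 3.78 CPM with SW-682. TGFB2, a TGF-beta ligand, measured 5.41, 9.51 and 9.92 CPM in smTEADi 1 to 3 and 19.7, 16.5 and 23.8 CPM in Vehicle 1 to 3 (-1.27 ± 0.23, adjusted p = 0.0365). DOCK5, an activator of the GTPase Rac, and CRIM1, a membrane protein that binds BMP ligands, were lower by less, at -0.72 ± 0.13 and -0.56 ± 0.11. AMOTL2, an inhibitor of YAP, was at -0.26 ± 0.09 (adjusted p = 0.119) and the receptor kinase AXL at -1.03 ± 0.34 (adjusted p = 0.0931). CCN2 and ANKRD1 had too few counts to be tested. AXL in smTEADi 1 was 5.41 CPM, within the vehicle range of 5.17 to 10.9 CPM, and without smTEADi 1 and Vehicle 2 its fold change was -1.38 (adjusted p = 0.024).

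The promoter of TGFB2 is shown because it is the called target with the smallest p whose RefSeq window, the 250 bases before the start in GRCh38.p14, holds GGAATG, the core hexamer of TEAD binding, on either strand. Capitals mark that hexamer, here on the opposite strand and 185 bases before the start.
TGFB2, chr1:218345086-218345335, plus strand: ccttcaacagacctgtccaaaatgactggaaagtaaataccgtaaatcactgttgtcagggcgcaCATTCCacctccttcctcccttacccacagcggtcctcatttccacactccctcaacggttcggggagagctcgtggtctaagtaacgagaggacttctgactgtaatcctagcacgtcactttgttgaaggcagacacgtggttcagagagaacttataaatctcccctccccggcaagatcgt
Among YAP/TAZ targets 28.6% of 14 windows held the hexamer, against 9.49% of the 10905 windows of all genes tested. The share was 10.75% of 400 windows of genes that fell and 12.6% of 214 windows of genes that rose. These are matches of letters in a short window, not bound sites.

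Of the factors themselves, TEAD4 fell (-1.09 ± 0.25, adjusted p = 0.0446), from 10.1, 8.63 and 11.7 CPM in Vehicle 1 to 3 to 3.04, 6.14 and 5.07 CPM. YAP1, at 245, 199 and 191 CPM with SW-682 and 174, 177 and 169 CPM with vehicle, did not pass (0.29 ± 0.11, adjusted p = 0.141), although its groups did not overlap. TEAD1, TEAD2, TEAD3 and WWTR1, which encodes TAZ, did not pass either. Of 21 upstream Hippo genes only the kinase gene MAP4K4 fell (-0.38 ± 0.09), where 3.48% of all genes tested fell. In all, 810 of the 816 genes called (99.3%) lie outside the YAP/TAZ target list. That list holds only 20 of the 14829 genes tested, so its size nearly fixes this share. Within it 6 of 20 fell, against 3.48% of all genes tested.

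Genes of cell division fell, and no other list had as many members that did. Of 40 mitosis and spindle genes 38 fell. All 40 of this list were lower in every SW-682 library than in every vehicle library, as were 17.3% of all genes tested. Its median log2 fold change was -1.23, and it was -1.03 without smTEADi 1, -1.40 without Vehicle 2 and -1.17 without both, when all 40 fell. AURKB, a kinase that corrects chromosome attachment, measured 7.56, 11.4 and 10.8 CPM in smTEADi 1 to 3 and 24.7, 21.4 and 29.5 CPM in Vehicle 1 to 3 (-1.34 ± 0.19). KIF4A, a kinesin that organises chromosomes and the central spindle (ENSG00000090889.12, GRCh38 chromosome X, 70290104 to 70420886, plus strand), measured 6.75, 9.64 and 9.21 CPM in smTEADi 1 to 3 and 22.2, 17.9 and 29.7 CPM in Vehicle 1 to 3 (-1.45 ± 0.21, adjusted p = 0.0365). Vehicle 2 was the lowest of the vehicle libraries for both genes and smTEADi 1 the lowest of all, with no overlap between groups. KIF23, which helps to complete cytokinesis, UBE2C, which targets cyclins for destruction, and AURKA, a centrosome kinase, fell by 1.24, 1.51 and 1.23 on the log2 scale.

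Of 36 replication and nucleotide synthesis genes 20 fell, none rose and all 36 had a negative fold change. Over its members the median was -1.01, and it was -0.77 without smTEADi 1, -1.13 without Vehicle 2 and -0.90 without both, when 32 fell. TYMS, which makes thymidylate (ENSG00000176890.16, GRCh38 chromosome 18, 657653 to 673578, plus strand), measured 8.82, 17.4 and 16.1 CPM in smTEADi 1 to 3 and 35.4, 29.6 and 42.4 CPM in Vehicle 1 to 3 (-1.34 ± 0.24). RRM2, a subunit of ribonucleotide reductase, went from 85.6, 56.8 and 95.3 CPM to 14.5, 34.4 and 31.6 CPM (-1.56 ± 0.30). In both genes smTEADi 1 was lowest and Vehicle 2 the lowest of its group, and the groups did not overlap. The helicase subunits MCM2 (-1.34 ± 0.26) and MCM7 (-0.80 ± 0.16) and the ligase LIG1 (-0.70 ± 0.13) fell as well. Of 19 homologous recombination and Fanconi genes 9 fell, with a median of -1.19 (-0.92 without smTEADi 1, -1.32 without Vehicle 2), and 17 fell without both. They include RAD54B (-1.65 ± 0.31), the nuclease gene EXO1 (-1.43 ± 0.31) and the Fanconi genes FANCI (-1.22 ± 0.26) and FANCA (-1.34 ± 0.29).

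The windows of KIF4A and TYMS hold elements known from cell cycle promoters. Each had the smallest p among the called members of its list with the element in the windows considered. Capitals mark TTTGAA, the cell cycle homology region, 34 bases before the start of KIF4A, and an E2F match (TTTCCCGC or TTTGGCGC) 39 bases before the start of TYMS on the opposite strand.
KIF4A, chrX:70289854-70290103, plus strand: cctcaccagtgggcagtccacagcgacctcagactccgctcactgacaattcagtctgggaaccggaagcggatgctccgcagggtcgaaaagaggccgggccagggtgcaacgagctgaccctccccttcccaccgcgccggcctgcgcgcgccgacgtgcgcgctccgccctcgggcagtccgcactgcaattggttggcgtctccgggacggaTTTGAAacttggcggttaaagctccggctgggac
TYMS, chr18:657403-657652, plus strand: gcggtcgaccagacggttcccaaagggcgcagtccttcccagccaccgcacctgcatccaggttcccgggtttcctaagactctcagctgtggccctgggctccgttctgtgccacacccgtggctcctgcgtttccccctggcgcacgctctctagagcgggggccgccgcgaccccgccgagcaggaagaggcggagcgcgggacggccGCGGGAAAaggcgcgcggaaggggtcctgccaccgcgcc
TTTGAA was in 57.6% of 33 mitosis windows, against 8.27% of all windows, and CCAAT, the box bound by NF-Y, in 81.8% against 35.0%. An E2F match was in 40.6% of 32 replication windows and in 3.145% of all windows. Each motif was searched on both strands, and both are known features of such genes, so the shares describe the lists and not the response.

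Of 16 genes that block the cyclin-dependent kinases or mark quiescence 3 rose and none fell, and the median was 0.30. CDKN1A, which encodes p21, measured 679.6, 577 and 589.5 CPM in smTEADi 1 to 3 and 363, 490.5 and 349.6 CPM in Vehicle 1 to 3 (0.62 ± 0.15, adjusted p = 0.0462), and Vehicle 2 was the highest of the vehicle libraries. TXNIP, an inhibitor of glucose uptake and thioredoxin, rose by 1.0 and CDKN2B by 0.64 on the log2 scale. MYC (-0.22 ± 0.10, adjusted p = 0.211) and CCND1 (-0.08 ± 0.17, adjusted p = 0.799) did not pass. Of 12 replication-dependent histone genes 4 rose, and all 12 had positive fold changes. Their median was 0.75, and it was 0.51 without smTEADi 1, 0.92 without Vehicle 2 and 0.61 without both. H2AC6 measured 64.0, 43.3 and 50.3 CPM in smTEADi 1 to 3 and 24.9, 27.6 and 25.3 CPM in Vehicle 1 to 3 (1.02 ± 0.15), with every SW-682 library above the vehicle libraries. Most of these histone messages end without a poly-A tail, so poly-A selection catches only some of them, and near-identical copies share reads that RSEM divides by estimate.

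Ribosome biogenesis takes place in the nucleolus and feeds growth. Of its 29 genes 3 fell, 28 had a negative fold change and the median was -0.40, with 13 lower without smTEADi 1 and Vehicle 2. TCOF1, a nucleolar factor for ribosomal RNA synthesis, measured 38.5, 50.9 and 55.3 CPM in smTEADi 1 to 3 and 78.5, 74.2 and 101 CPM in Vehicle 1 to 3 (-0.81 ± 0.16), with no overlap. NOP56 (-0.73 ± 0.17) and MRTO4 (-0.71 ± 0.16), which act in ribosome assembly, also fell. Of 28 cytosolic ribosomal protein genes and 25 proteasome genes none passed, with medians of -0.17 and -0.23. Their fold changes were all negative, 4 and 12 had an unadjusted p under 0.05 by edgeR, and limma with library weights called 1 of each. The medians were -0.10 and -0.13 without smTEADi 1. In the spliceosome list 2 of 24 fell, SNRPA (-0.62 ± 0.15) and SNRPF (-0.56 ± 0.13), and among 19 cytosolic chaperones the mitochondrial chaperonin HSPD1 fell (-0.88 ± 0.20). Without smTEADi 1 and Vehicle 2, 8 spliceosome genes fell and 1 rose, and 10 chaperones fell.

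Interferon-stimulated genes fell in tumours given SW-682. These genes are switched on by interferon or by sensing of nucleic acids in the cell and restrict viruses. Of 33 tested 21 fell and none rose, and in 30 the groups did not overlap (17.3% of all genes tested were lower without overlap). The list median was -1.03, and it was -0.86 without smTEADi 1, -1.11 without Vehicle 2 and -0.92 without both, when 27 fell. ISG15, a ubiquitin-like modifier (ENSG00000187608.10, GRCh38 chromosome 1, 1001138 to 1014540, plus strand), measured 27.9, 58.2 and 54.0 CPM in smTEADi 1 to 3 and 137, 112 and 158 CPM in Vehicle 1 to 3 (-1.54 ± 0.25, adjusted p = 0.0365). Vehicle 2 was the lowest of the vehicle libraries and smTEADi 1 the lowest of all 6, with no overlap. OASL, a sensor-linked antiviral protein, measured 45.6, 87.2 and 62.3 CPM in smTEADi 1 to 3 and 203, 195 and 219 CPM in Vehicle 1 to 3 (-1.66 ± 0.20). IFIT3 (-1.55 ± 0.25), which binds foreign RNA with its partners, DDX60 (-1.21 ± 0.18), a helicase of RNA sensing, and HERC6 (-1.03 ± 0.16), of the family of ISG15 ligases, fell too. RSAD2, which makes an antiviral nucleotide, and its neighbour gene CMPK2 fell by 1.68 and 1.77 on the log2 scale.

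The window shown is that of HERC5, the ligase that attaches ISG15. Among called members with the interferon response element (GAAA, any 2 bases, GAAA) in the windows considered, HERC5 had the smallest p. Its window carries 3 matches on the opposite strand. Capitals mark the matches, of which 2 overlap, between 74 and 125 bases before the start.
HERC5, chr4:88456869-88457118, plus strand: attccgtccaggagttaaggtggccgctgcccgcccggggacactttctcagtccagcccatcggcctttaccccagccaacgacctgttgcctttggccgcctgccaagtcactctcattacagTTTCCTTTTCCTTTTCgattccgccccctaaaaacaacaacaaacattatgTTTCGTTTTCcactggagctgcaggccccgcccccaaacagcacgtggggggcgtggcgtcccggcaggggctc
HERC5 measured 4.67, 6.61 and 5.64 CPM in smTEADi 1 to 3 and 16.8, 9.97 and 18.8 CPM in Vehicle 1 to 3 (-1.43 ± 0.25), and Vehicle 2 lay between Vehicle 1 and 3 and the SW-682 libraries. The element was in 57.7% of 26 interferon-stimulated windows and 46.2% of 13 antigen presentation windows, against 2.357% of all windows. It was in 5.25% of the windows of genes that fell and 1.40% of those of genes that rose.

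Of 17 antigen presentation genes 5 fell, in 16 the groups did not overlap and the median was -0.52. Without overlap, 17.3% of all genes tested were lower. TAP1, a subunit of the transporter that carries peptides to class I molecules, measured 59.3, 81.3 and 81.7 CPM in smTEADi 1 to 3 and 116, 107 and 131 CPM in Vehicle 1 to 3 (-0.67 ± 0.14). Its partner TAP2 (-0.46 ± 0.11), the immunoproteasome subunit PSMB9 (-0.93 ± 0.22) and the class I gene HLA-C (-0.57 ± 0.13) fell, and class I genes share reads among themselves. Of 11 chemokine and cytokine genes tested CCL5, which attracts T cells, fell from 30.5, 21.9 and 30.4 CPM to 4.6, 12.9 and 11.7 CPM (-1.50 ± 0.32). CXCL1 fell as well (-2.68 ± 0.58), on only 1 to 28 counts per library. None of 13 NF-kB feedback genes passed by edgeR. Their median of -0.14 was -0.06 without smTEADi 3 and 0.06 without Vehicle 3, 5 had an unadjusted p under 0.05 and limma with library weights called 3.

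Genes of a partly mesenchymal tumour cell, a spindle-shaped and invasive state seen at carcinoma edges, fell in 16 of 26 cases and rose in none. Its median log2 fold change was -0.87, and it was -0.72 without smTEADi 1, -0.93 without Vehicle 2 and -0.79 without both. VIM, the mesenchymal intermediate filament (ENSG00000026025.16, GRCh38 chromosome 10, 17228241 to 17237593, plus strand), measured 18.8, 38.4 and 20.4 CPM in smTEADi 1 to 3 and 79.2, 76.2 and 126 CPM in Vehicle 1 to 3 (-1.86 ± 0.29, adjusted p = 0.0365). THBS1, a matrix protein and a known YAP-responsive gene, measured 132, 322 and 285 CPM in smTEADi 1 to 3 and 736, 789.8 and 974 CPM in Vehicle 1 to 3 (-1.76 ± 0.29). For both, every SW-682 library was under every vehicle library. LGALS1, a secreted galectin, fell by 1.20 and INHBA, the activin A subunit, by 0.79 on the log2 scale. MT2A, a metallothionein that binds zinc, fell by 1.31. Of 23 TGF-beta and activin genes 4 fell. Besides TGFB2 and INHBA they are FST (-1.12 ± 0.18) and FSTL3 (-0.86 ± 0.19), whose proteins neutralise activin.

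The basement membrane is the sheet of collagen and laminin on which basal cells sit. Of its 19 genes, hemidesmosome genes included, 6 fell and none rose, with a median of -0.38. That median was between -0.37 and -0.41 without smTEADi 1, Vehicle 2 or both, -0.52 without smTEADi 2 and -0.35 without Vehicle 3. COL4A2, a chain of the collagen network, measured 91.0, 155 and 126 CPM in smTEADi 1 to 3 and 204, 264 and 253 CPM in Vehicle 1 to 3 (-0.96 ± 0.18). Here smTEADi 1 was again the lowest and Vehicle 2 was the highest of the vehicle libraries. Its partner COL4A1 (-0.88 ± 0.17) and the laminin chains LAMC1 (-0.53 ± 0.12) and LAMB1 (-0.52 ± 0.11) fell. Of 12 integrin subunits ITGA5, the fibronectin receptor chain, fell (-1.07 ± 0.24), as did ITGB2 (-2.43 ± 0.57), a leukocyte integrin read from 1 to 27 counts per library. Among 28 actin and focal adhesion genes 6 fell, with a median of -0.34. They include the adaptor PXN (-0.65 ± 0.12), the crosslinkers ACTN1 (-0.85 ± 0.18) and FLNA (-0.67 ± 0.15), the GTPase regulator ARHGAP29 (-0.85 ± 0.14) and ANLN (-1.50 ± 0.25), which acts in cytokinesis. The protease ADAMTS1 (-1.73 ± 0.24) and the urokinase receptor PLAUR (-1.15 ± 0.20) were the 2 of 20 matrix protease and plasminogen genes that fell.

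The list with most members that rose was that of the upper, differentiated layers of oral epithelium. Of 28 mucosal surface and secreted suprabasal genes 10 rose and all 28 had positive fold changes. In 22 of this list the SW-682 libraries were all above the vehicle libraries, as in 15.7% of all genes tested. Over its members the median was 1.18, and it was 0.91 without smTEADi 1, 1.65 without Vehicle 2 and 1.24 without both, when 24 rose. TMPRSS11B, a membrane serine protease of squamous epithelium (ENSG00000185873.8, GRCh38 chromosome 4, 68226653 to 68245694, minus strand), measured 121, 47.2 and 45.9 CPM in smTEADi 1 to 3 and 13.8, 18.6 and 8.07 CPM in Vehicle 1 to 3 (2.40 ± 0.41). CLCA4, a secreted protein related to chloride channel regulators, measured 136, 52.5 and 55.1 CPM in smTEADi 1 to 3 and 17.4, 17.5 and 16.7 CPM in Vehicle 1 to 3 (2.23 ± 0.34). In both, smTEADi 1 was more than the sum of smTEADi 2 and 3, and no library of the other group reached them. Without smTEADi 1 and Vehicle 2 their fold changes were 2.09 and 1.66, and both still passed. MAL, a membrane protein of apical sorting (2.22 ± 0.38), the related protease TMPRSS11A (1.60 ± 0.30) and the mucin MUC15 (1.42 ± 0.26) rose as well.

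Of 12 keratins, most of them of suprabasal and mucosal layers, 4 rose and all 12 had positive fold changes. The list also holds KRT15, of the basal layer, and KRT19, of simple and basal epithelium, and neither passed (0.22 ± 0.16 and 0.28 ± 0.34). The median of all 12 was 1.09, and it was 0.85 without smTEADi 1, 1.51 without Vehicle 2 and 1.28 without both, when 10 rose. KRT4, the mucosal type II keratin (ENSG00000170477.13, GRCh38 chromosome 12, 52806549 to 52814116, minus strand), measured 16950.0, 9579 and 14246 CPM in smTEADi 1 to 3 and 6078, 6388 and 4875 CPM in Vehicle 1 to 3 (1.23 ± 0.22). Its partner KRT13 measured 39320.0, 29883 and 30683 CPM in smTEADi 1 to 3 and 16149, 22926 and 14041 CPM in Vehicle 1 to 3 (0.91 ± 0.22). Vehicle 2 was the highest vehicle library for both genes but did not reach the SW-682 libraries. KRT9, a keratin of palm and sole skin, and KRT77 rose by 2.40 and 1.16 on the log2 scale. Of 10 basal and stress keratins KRT75 (-1.84 ± 0.38) and the simple-epithelium keratin KRT8 (-1.05 ± 0.20) fell. Paralogous keratins can share reads.

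Other products of the same layers rose alongside. Among 15 epithelial serpins, cystatins and SPINK inhibitors 5 rose (median 0.68). SERPINB3, the squamous cell carcinoma antigen, measured 704, 512 and 589 CPM in smTEADi 1 to 3 and 304, 353 and 258 CPM in Vehicle 1 to 3 (0.98 ± 0.15), and its close copy SERPINB4, which shares reads with it, rose by 0.68. SLPI (0.69 ± 0.13), CST6 (1.17 ± 0.23) and SPINK5 (1.17 ± 0.29) encode inhibitors of the epithelial proteases. Of 15 kallikreins and serine proteases PRSS27 (1.83 ± 0.40), TMPRSS2 (1.69 ± 0.39) and TMPRSS13 (0.80 ± 0.17) rose. Of 13 mucosal glycan enzymes 4 rose, among them B3GALT5 (2.10 ± 0.41) and the fucosyltransferases FUT6 (1.79 ± 0.40) and FUT2 (0.60 ± 0.13), which build blood-group-type glycans. Their list median fell to 0.29 without smTEADi 1, the library in which B3GALT5 was 68.6 CPM against 26.2 and 20.6 CPM in its partners. HOPX, a cofactor of terminal differentiation, was the only one of 22 lineage transcription factors to rise (1.15 ± 0.28), and 11 rose without smTEADi 1 and Vehicle 2. Of 24 desmosome and tight junction genes 3 rose and 1 fell, where 2.02% and 3.48% of all genes tested did. These are the tight junction genes TJP3 (1.45 ± 0.32), CLDN4 (0.84 ± 0.20) and CGN (0.97 ± 0.23), which rose, and the desmosome gene PKP2, which fell (-0.81 ± 0.17).

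**Figure D2:**
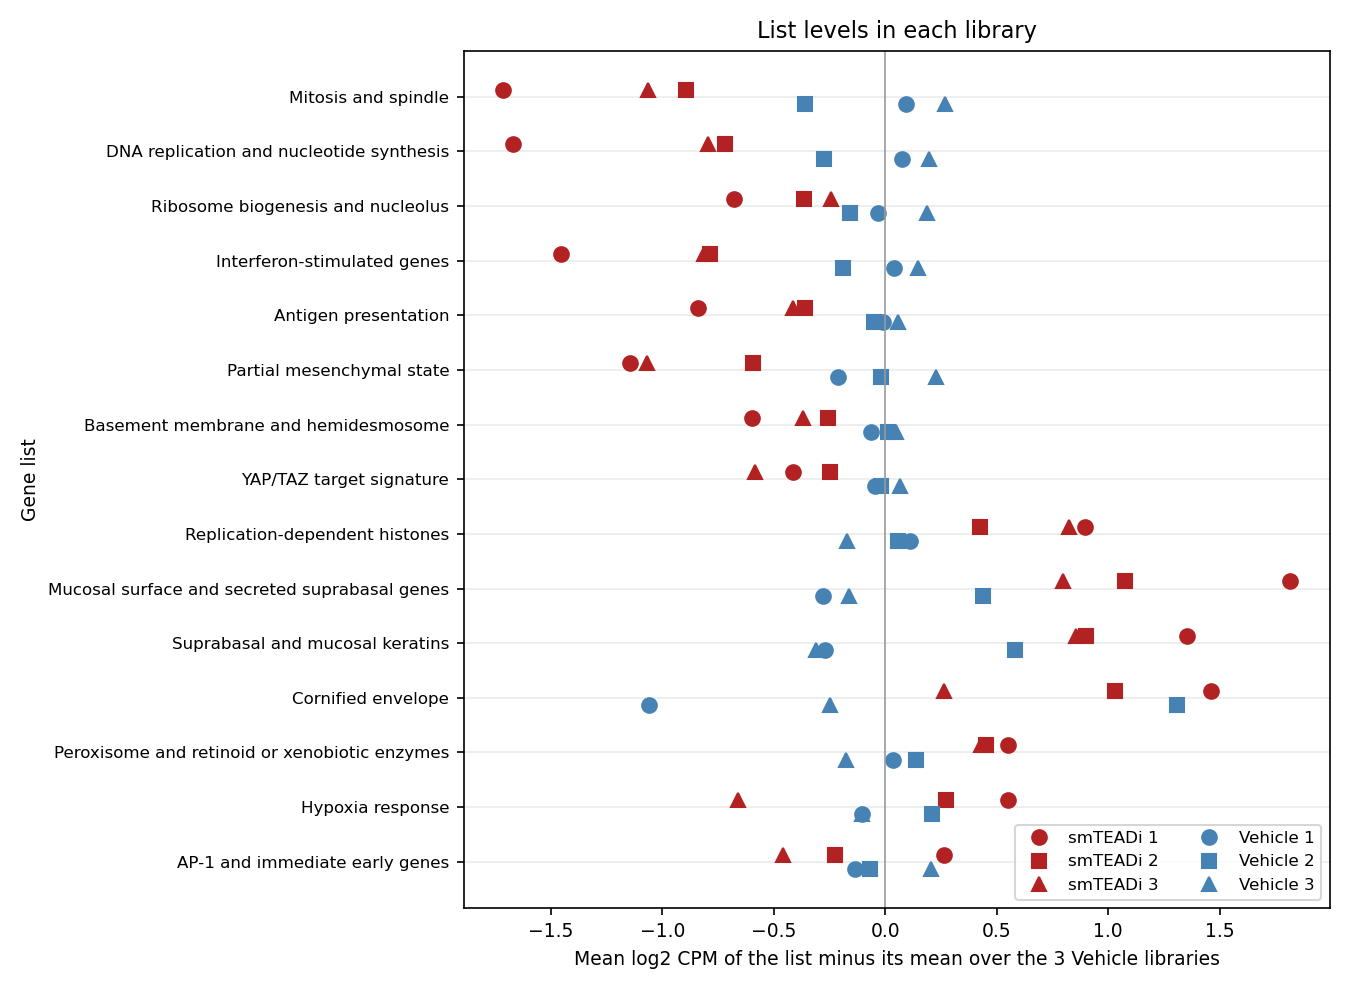
Mean log2 CPM of the tested members of 15 gene lists in each library, less the mean of the 3 vehicle libraries (red, SW-682; blue, vehicle; the marker shape gives the replicate number). The groups are apart for mitosis, replication, interferon, mesenchymal and mucosal lists, and Vehicle 2 lies among the SW-682 libraries for the cornified envelope list.

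The cornified envelope is the cross-linked shell of the outermost cells, and leaving out Vehicle 2 moved its count more than that of any other list. Of 24 tested members only SPRR3, a small proline-rich precursor of the envelope, rose (1.41 ± 0.33). Without Vehicle 2, 14 rose, without smTEADi 1 none, and without both 15. The list median was 0.70, and it was 0.42 without smTEADi 1, 1.45 without Vehicle 2 and 1.09 without both. Without Vehicle 1 it was 0.43. The mean log2 CPM of the list was 6.67, 6.24 and 5.47 in smTEADi 1 to 3 and 4.15, 6.52 and 4.96 in Vehicle 1 to 3. Vehicle 2 was thus above smTEADi 2 and 3, and the groups overlapped. LORICRIN, the main protein of the envelope in skin (ENSG00000203782.6, GRCh38 chromosome 1, 153259687 to 153262124, plus strand), measured 32.5, 23.4 and 11.3 CPM in smTEADi 1 to 3 and 1.10, 53.5 and 6.42 CPM in Vehicle 1 to 3 (0.14 ± 0.93, adjusted p = 0.936). It was highest in Vehicle 2, and without smTEADi 1 and Vehicle 2 its log2 fold change was 2.21 (adjusted p = 0.015). FLG2, a filaggrin-type protein (ENSG00000143520.6, GRCh38 chromosome 1, 152348735 to 152360006, minus strand), measured 107, 85.2 and 45.5 CPM in smTEADi 1 to 3 and 5.93, 115 and 14.8 CPM in Vehicle 1 to 3 and went from 0.81 ± 0.82 to 2.66 in the same way (adjusted p = 0.555 and 0.000572). FLG, RPTN and ASPRV1, of the same late program, had fold changes of 0.66 ± 0.85, 1.09 ± 0.57 and 0.29 ± 0.91 and did not pass. Without both libraries they were 1.68, 2.30 and 2.08 and passed. Genes were named here for moving most without Vehicle 2, so this gain follows from how they were chosen. Of 17 windows in this list 47.1% held GGAATG and 35.3% held TGAGTCA, the site of AP-1, against 9.49% and 2.84% of all windows.

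Of the 5 protein-coding genes of at least 20 CPM that moved most without smTEADi 1, 1 was called. PSCA, a surface antigen, measured 242, 91.8 and 42.0 CPM in smTEADi 1 to 3 and 21.8, 24.4 and 26.3 CPM in Vehicle 1 to 3 and still rose (2.37 ± 0.51), at 1.48 without smTEADi 1 and Vehicle 2. PADI1, which converts arginine to citrulline in keratinocytes, measured 83.5, 32.7 and 8.35 CPM in smTEADi 1 to 3 and 6.69, 11.3 and 11.3 CPM in Vehicle 1 to 3 (2.08 ± 0.64, adjusted p = 0.0789). Its level in smTEADi 3 lay inside the vehicle range, so the groups overlapped. ATG9B (2.0 ± 0.65), the transcription factor PRDM1 (1.22 ± 0.53) and the phosphatase DUSP5 (0.23 ± 0.49) were also highest in smTEADi 1 and did not pass. DUSP5 changed sign without the 2 libraries, to -0.69 (adjusted p = 0.18).

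**Figure D3:**
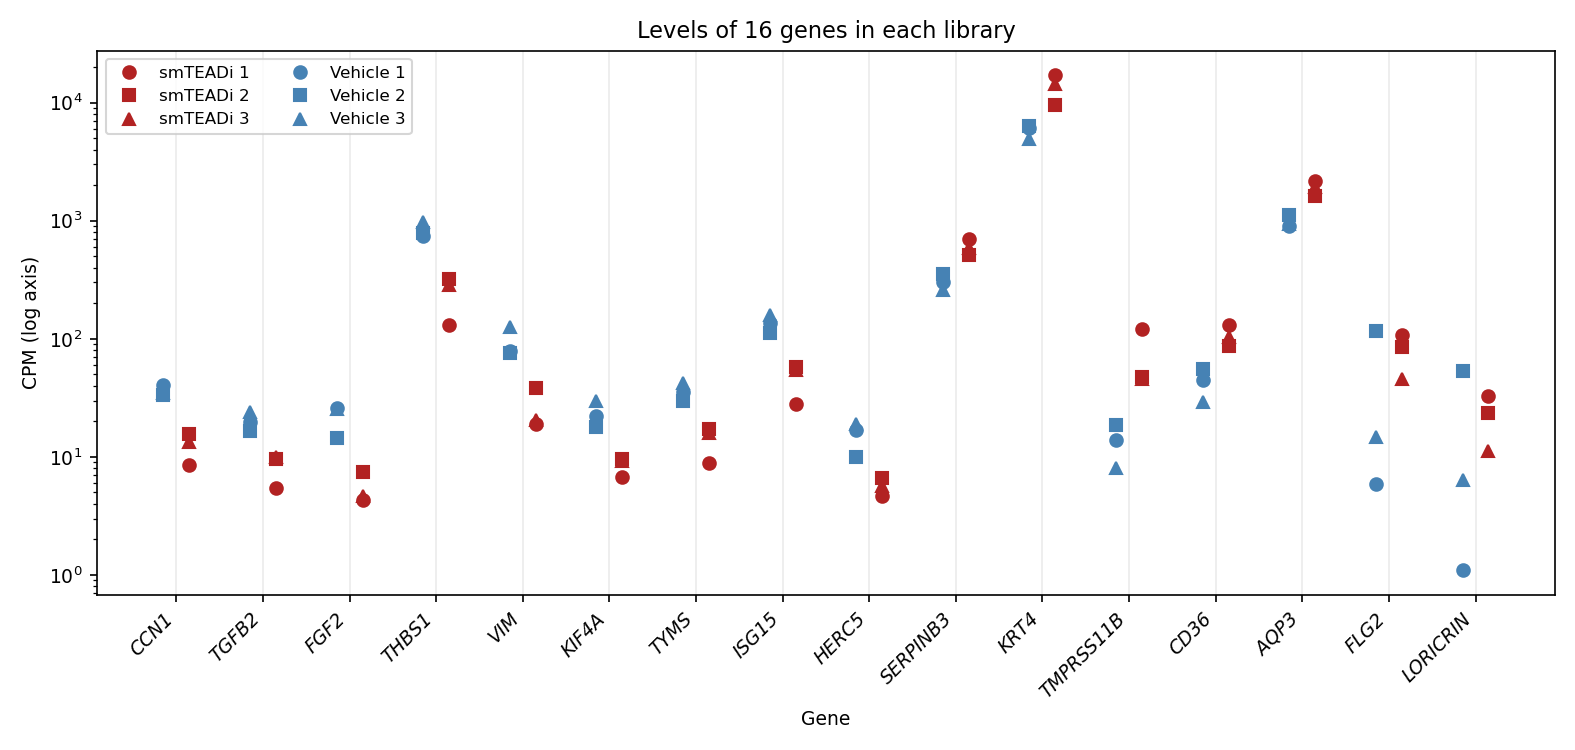
Level of 16 genes in each library in CPM on a log axis (red, SW-682; blue, vehicle; the marker shape gives the replicate number). CCN1 lies at 8.60 to 15.5 CPM with SW-682 and 33.5 to 40.2 CPM with vehicle, and LORICRIN is highest in Vehicle 2, at 53.5 CPM.

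By size alone, the largest falls among called protein-coding genes of at least 5 CPM whose groups did not overlap were in IL7R, HEPHL1 and FGF2. IL7R, the interleukin 7 receptor (ENSG00000168685.15, GRCh38 chromosome 5, 35852695 to 35879603, plus strand), measured 0.89, 2.44 and 1.78 CPM in smTEADi 1 to 3 and 11.9, 7.64 and 14.1 CPM in Vehicle 1 to 3 (-2.70 ± 0.35; -2.61 without smTEADi 1 and Vehicle 2). HEPHL1 was highest in Vehicle 2 and was the more dependent on it: 2.08, 4.95 and 1.86 CPM in smTEADi 1 to 3 and 6.34, 20.2 and 9.94 CPM in Vehicle 1 to 3 gave -2.02 ± 0.48, and -1.24 without those 2 libraries. RAD54L (-1.69 ± 0.40), a DNA-dependent ATPase of homologous recombination, MCM10 (-1.60 ± 0.34), a factor of replication start, and CREB5 (-1.64 ± 0.32), a bZIP transcription factor, complete the 15 largest falls with genes named above. Among the 15 largest rises not yet named, KRT79, a keratin of hair follicle and gland ducts, measured 233, 149.5 and 144 CPM in smTEADi 1 to 3 and 32.7, 101 and 33.7 CPM in Vehicle 1 to 3 (1.66 ± 0.41). Vehicle 2 lay between its group and the SW-682 libraries, and the fold change was 2.15 without smTEADi 1 and Vehicle 2. BCAS1 (1.62 ± 0.28) and the secreted protein gene FAM3D (1.77 ± 0.36) rose too.

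Retinoid and xenobiotic enzymes, listed with peroxisomal genes, rose in 5 of 21 cases and fell in none. The median was 0.43, 0.45 without smTEADi 1, 0.49 without Vehicle 2 and 0.46 without both, when 10 rose. It was lower without Vehicle 3 (0.25) and without smTEADi 3 (0.30), and 3 rose without smTEADi 1. CYP2C18, a cytochrome P450 of epithelia, measured 49.3, 35.5 and 39.7 CPM in smTEADi 1 to 3 and 17.3, 25.1 and 14.9 CPM in Vehicle 1 to 3 (1.12 ± 0.20). SDR16C5 (0.99 ± 0.17), RDH12 (1.10 ± 0.26) and DHRS3 (0.70 ± 0.16) interconvert retinol and retinal, and CYP3A5 (1.66 ± 0.33) is a drug-metabolising P450. In each of the 5 genes all SW-682 libraries were above all vehicle libraries, as in every gene called as rising.

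FGF2, a growth factor for fibroblasts and carcinoma cells, measured 4.30, 7.46 and 4.64 CPM in smTEADi 1 to 3 and 26.0, 14.5 and 25.4 CPM in Vehicle 1 to 3 (-2.0 ± 0.28), and it was the only one of 13 FGF system genes called. Of 13 genes of the EGFR family and its ligands 1 rose and 1 fell, and 5.5% of all genes tested were called. NRG1, a neuregulin, fell (-1.54 ± 0.26), and ERBB2, which signals with neuregulin receptors, rose (0.63 ± 0.16). EGFR did not pass (-0.23 ± 0.11, adjusted p = 0.206). In the Wnt list 4 of 21 were called: WNT5A rose (0.79 ± 0.14), and the secreted antagonists DKK1 (-1.58 ± 0.32) and SFRP1 (-1.65 ± 0.31) and the transcription factor TCF7 (-1.11 ± 0.21) fell. Of 18 immediate early genes EGR1 fell (-0.70 ± 0.14) and IER5 rose (0.46 ± 0.10). By edgeR no member of 16 MAPK feedback and output genes or of 18 Notch pathway genes passed. Of these 7 and 5 had an unadjusted p under 0.05, and limma with library weights called 2 and 1. PMAIP1, a BH3-only protein that promotes apoptosis, had the smallest p of all genes and measured 5.12, 6.87 and 5.85 CPM in smTEADi 1 to 3 and 18.9, 14 and 18.5 CPM in Vehicle 1 to 3 (-1.52 ± 0.18). It was the only one of 13 BCL2 family genes called.

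Metabolic and stress genes were called in both directions, where 5.5% of all genes tested were called. Of 28 nuclear respiratory chain genes SDHA, a subunit of succinate dehydrogenase, fell from 86.0, 89.8 and 93.9 CPM to 54.5, 58.0 and 54.0 CPM (-0.70 ± 0.09), a narrow spread in both groups. None of 21 glycolysis genes, 13 mitochondrially encoded genes or 28 cholesterol and fatty acid synthesis genes passed by edgeR. At an unadjusted p under 0.05 there were 4, 0 and 5, and limma with library weights called 3, 0 and 3. The collagen-modifying enzymes PLOD2 (-0.86 ± 0.14) and PLOD1 (-0.52 ± 0.12) fell among 24 hypoxia response genes, whose median was 0.17. No direction can be given for that list: the median was -0.07 without smTEADi 1, 0.41 without smTEADi 3, 0.34 without Vehicle 2 and 0.09 without Vehicle 3. Its mean log2 CPM was 7.13, 6.86 and 5.92 in smTEADi 1 to 3 and 6.48, 6.79 and 6.48 in Vehicle 1 to 3, so the groups overlapped. Of 22 ATF4 and amino acid stress genes 2 rose and 2 fell, with a median of -0.09. PHGDH, the first enzyme of serine synthesis, rose (0.61 ± 0.11), and SHMT2 (-0.60 ± 0.13) and MTHFD2 (-0.74 ± 0.17), the mitochondrial folate enzymes, fell. NUPR1, a stress-induced nuclear protein, rose (0.75 ± 0.14). Of 11 iron handling genes the exporter SLC40A1 rose (1.42 ± 0.34), and the ferroxidase HEPHL1 (-2.02 ± 0.48) and the importer SLC39A14 (-0.81 ± 0.17) fell. Of 18 genes of endoplasmic reticulum chaperones and the unfolded protein response, PDIA4 (-0.61 ± 0.13) and HSP90B1 (-0.48 ± 0.12) fell. None of 24 NRF2 targets passed by edgeR, with 8 at an unadjusted p under 0.05 and 4 called by limma with library weights.

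Of 21 p53 targets TP53INP1, an autophagy and cell death cofactor, measured 58.0, 54.4 and 57.6 CPM in smTEADi 1 to 3 and 37.8, 40.7 and 25.8 CPM in Vehicle 1 to 3 (0.71 ± 0.16), and TNFRSF10B, a TRAIL death receptor, measured 38.1, 41.3 and 37.0 CPM in smTEADi 1 to 3 and 52.3, 56.2 and 61.1 CPM in Vehicle 1 to 3 (-0.54 ± 0.10). The third p53 target called was CDKN1A, so 2 rose and 1 fell, and the groups did not overlap in any of them. GSDMD, the pore-forming gasdermin, fell (-0.41 ± 0.10) among 15 gasdermin and caspase genes, and the lysosomal hexosaminidase gene HEXA fell (-0.44 ± 0.09) among 24 autophagy and lysosome genes. SPTLC3, a subunit of the enzyme that starts sphingolipid synthesis, was the only one of 17 barrier lipid genes to rise (0.58 ± 0.14), where the list median was 0.60 and 9 rose without smTEADi 1 and Vehicle 2. MT2A was also the only one of 11 glucocorticoid-induced genes called. As 5.5% of all genes tested were called, single calls in lists of this size say nothing about the lists. None of 15 circadian clock genes passed by edgeR, with 2 at an unadjusted p under 0.05 and 0 called by limma with library weights.

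**Figure D4:**
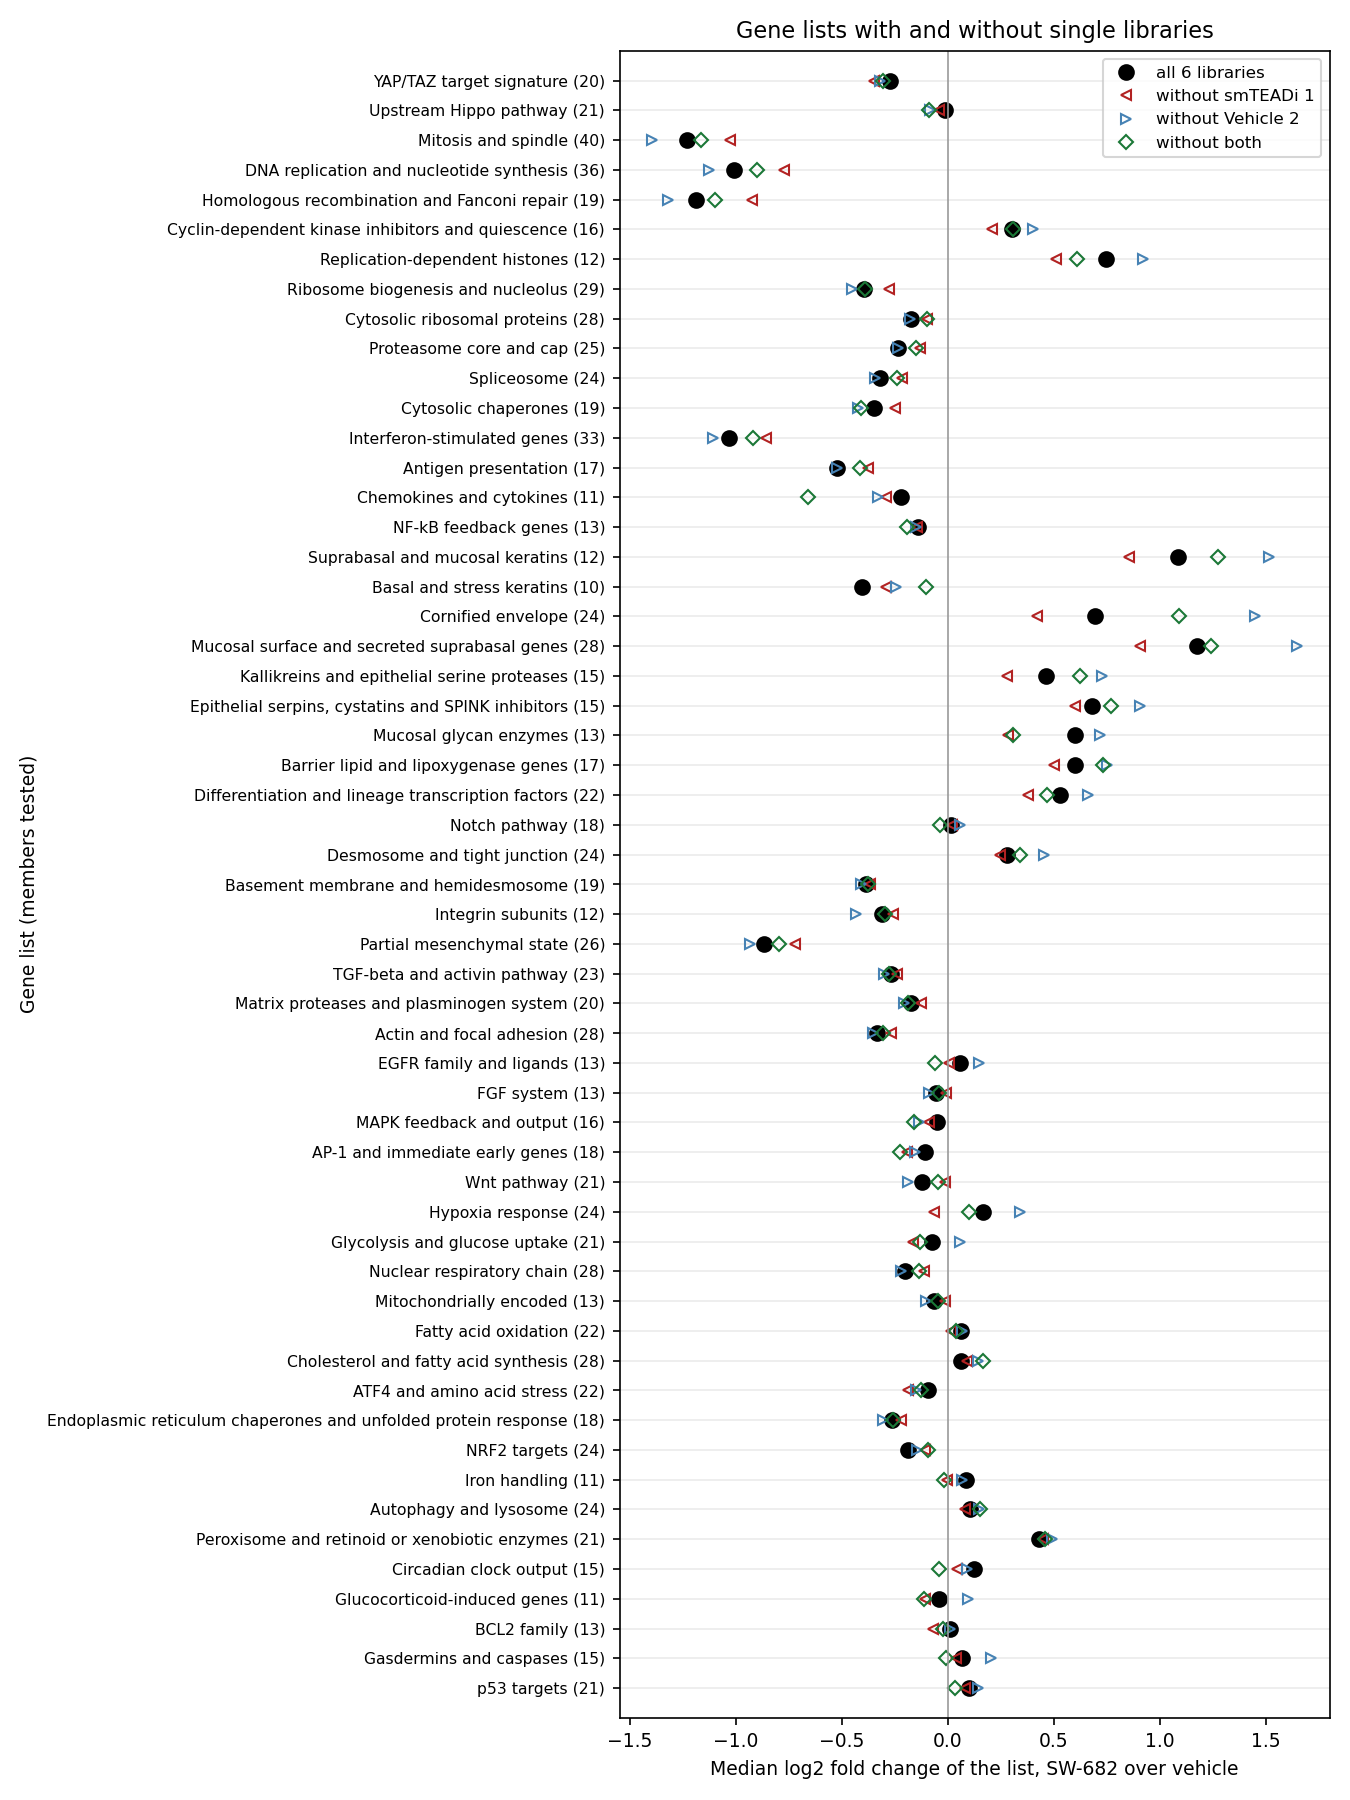
Median log2 fold change (SW-682 over vehicle) of gene lists with 10 or more tested members, from all 6 libraries (black) and without smTEADi 1, Vehicle 2 or both. Lists of host cell markers and of squamous identity are left out. The mitosis median runs from -1.40 to -1.03 and that of the cornified envelope from 0.42 to 1.45.

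The lists hold 1109 of the genes tested and 216 of the 816 called, and the other 600 (249 rose, 351 fell) belong to none of them. Of the latter, protein-coding genes with a mean of at least 20 CPM and the smallest p are named. AQP3, a water and glycerol channel of basal and suprabasal keratinocytes (ENSG00000165272.16, GRCh38 chromosome 9, 33441156 to 33447596, minus strand), measured 2182, 1632 and 1934 CPM in smTEADi 1 to 3 and 897, 1108 and 932 CPM in Vehicle 1 to 3 (0.97 ± 0.15). CD36, a fatty acid receptor, measured 130.1, 86.5 and 104 CPM in smTEADi 1 to 3 and 44.3, 55.1 and 29.0 CPM in Vehicle 1 to 3 (1.32 ± 0.23), and SH3BGRL2 measured 64.4, 38.8 and 34.3 CPM in smTEADi 1 to 3 and 14.9, 19 and 12.1 CPM in Vehicle 1 to 3 (1.58 ± 0.25). In these 3 genes smTEADi 1 was highest, Vehicle 2 was the highest of its group, and the groups did not overlap. NDRG4 (1.44 ± 0.19), MAB21L4 (1.18 ± 0.18) and the troponin gene TNNT2 (1.13 ± 0.19) rose as well. METTL7A, ANKRD22 and UPK3BL2 rose by 0.87, 0.85 and 0.94, and UPK3BL2 has near-identical copies.

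Of the genes that fell outside the lists, PODXL, an anti-adhesive sialomucin, measured 11.1, 17.5 and 15.1 CPM in smTEADi 1 to 3 and 33.7, 34.1 and 37.1 CPM in Vehicle 1 to 3 (-1.26 ± 0.16). CX3CL1, the membrane chemokine fractalkine, measured 55.9, 60.8 and 54.4 CPM in smTEADi 1 to 3 and 122, 91.0 and 128 CPM in Vehicle 1 to 3 (-1.0 ± 0.14). WARS1, a tryptophan tRNA synthetase that interferon induces, measured 52.9, 84.0 and 69.5 CPM in smTEADi 1 to 3 and 174, 128 and 169.7 CPM in Vehicle 1 to 3 (-1.19 ± 0.18). The vehicle libraries were above every SW-682 library in all 3 genes. Several of the rest belong to cell division: the kinase PKMYT1 (-1.36 ± 0.21), which holds CDK1 inactive, the citron kinase CIT (-1.16 ± 0.18) and ASPM (-1.28 ± 0.20) and FAM83D (-1.05 ± 0.15), both of the spindle. COTL1, an actin-binding protein, fell by 1.47 and the lipid transfer gene PLTP by 0.89 on the log2 scale. By type, 781 of the 816 genes are protein-coding and 23 are long non-coding RNAs, of which 16 rose and 7 fell.

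The pTEADi experiment, which shares no library with this one, gives values for the same genes. There 1866 of 14705 genes rose (12.7%) and 1998 fell (13.6%). Of the 300 genes that rose with SW-682, 257 also rose with pTEADi, which is 85.7% of the SW-682 list and 13.8% of the pTEADi list. Of the 516 that fell, 470 fell with pTEADi (91.1% and 23.5% of the lists). All 40 mitosis genes fell there (median -1.04), as did 31 of 33 interferon-stimulated genes (median -1.35), and 23 of 28 mucosal genes rose (median 1.33). In the cornified envelope list 16 of 24 rose there, among them LORICRIN (2.91 ± 0.44) and FLG2 (2.93 ± 0.43), which did not pass with SW-682. Of the YAP/TAZ targets 14 fell with pTEADi at a median of -0.58, beside 6 and -0.27 with SW-682. Of 24 hypoxia genes 14 fell there at a median of -0.80, beside 2 and 0.17, the latter turning with single libraries as given above. No list was tested for a difference between the inhibitors.

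**Figure D5:**
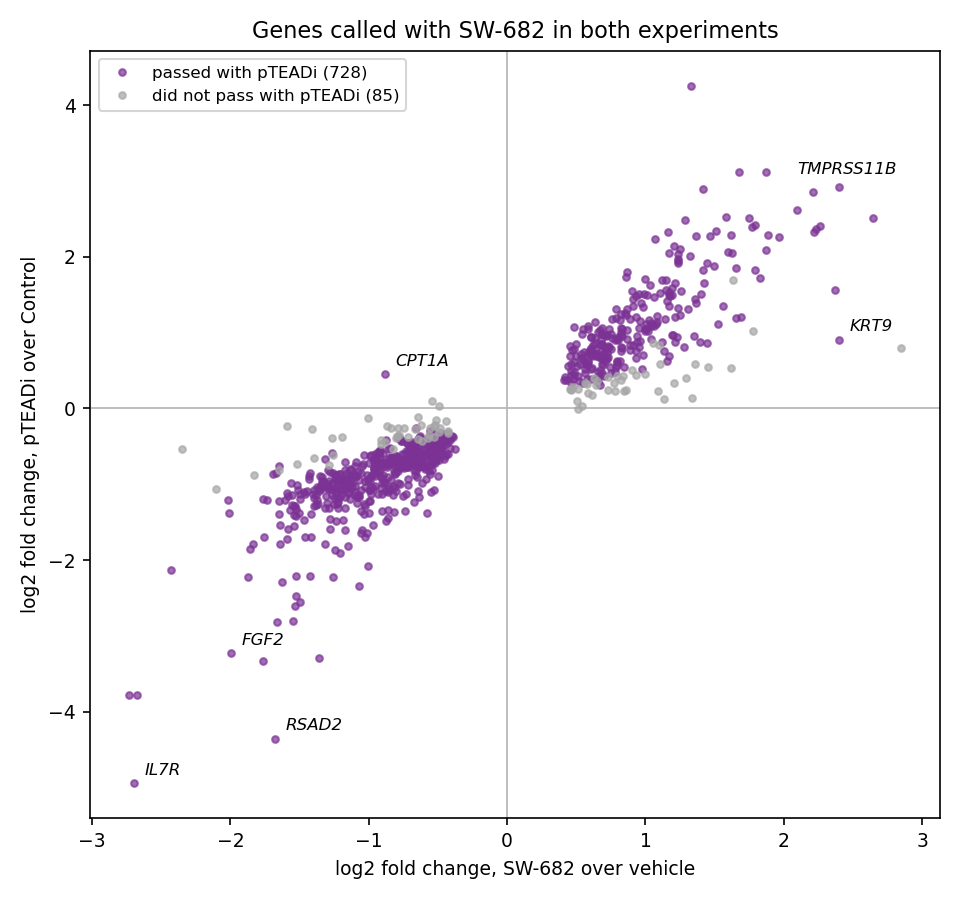
Log2 fold change with SW-682 (x axis) and with pTEADi (y axis) for the genes called with SW-682 and tested in both experiments (purple, also past an adjusted p of 0.05 with pTEADi; grey, not past it). Of these, 727 passed with pTEADi in the same direction, and CPT1A alone passed in the opposite one.

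The difference of the 2 effects was called in 2 of 15460 genes (0.0129%), CPT1A and CEMIP. CPT1A, which carries long-chain fatty acids into mitochondria (ENSG00000110090.13, GRCh38 chromosome 11, 68754620 to 68844410, minus strand), measured 14.1, 12.2 and 15.5 CPM in smTEADi 1 to 3 and 26.2, 24.0 and 26.8 CPM in Vehicle 1 to 3 (-0.88 ± 0.13, adjusted p = 0.0365). With pTEADi it rose (0.46 ± 0.13), and it was the only gene called in opposite directions. Genes called with SW-682 and not with pTEADi, such as PHGDH (0.17 ± 0.13 with pTEADi), are not shown to differ, since the difference itself did not pass.

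Reads from host cells could enter a xenograft library, and the sources used here do not say whether mouse reads were removed. Defining markers of host cells were at 0 in all 6 libraries in several lists: COL3A1 and POSTN of 16 fibroblast and collagen genes, CDH5, EMCN and KDR of 13 endothelial genes, 7 of 17 leukocyte genes, and ADIPOQ, CIDEC, LEP and LPL of 10 adipocyte genes. Summed fibroblast and collagen markers were 513 to 621 CPM with SW-682 and 604 to 675 CPM with vehicle, and summed leukocyte markers 36.1 to 54.1 and 37.9 to 47.7 CPM. The adipocyte list, through its members not at 0, summed to 579 to 779 CPM with SW-682 and 457 to 720 CPM with vehicle. Of its 5 tested members none was called, and the median log2 fold change was 0.43. Summed endothelial markers were 41.7 to 65.7 CPM with SW-682 and 25.1 to 42.7 CPM with vehicle, where ROBO4 alone fell (-2.73 ± 0.56, on 1 to 65 counts per library). Squamous identity genes, among them TP63 and KRT5, were all measured and summed to 46251 to 64808 CPM with SW-682 and 64509 to 79733 CPM with vehicle. EPCAM, an adhesion molecule of simple and immature epithelium, was the only one of those 12 called (-1.10 ± 0.20). The part these markers have in the results was not tested.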

How the data were processed

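RNA from 12 Cal33 xenograft tumours was sequenced after poly-A selection, and 6 of them, 3 with SW-682 and 3 with vehicle, are compared here. The authors deposited a table of expected counts per gene for this experiment and another for pTEADi. Per the submitters' processing notes, RSEM 1.3.1 and STAR 2.7.9a were used with GRCh38 and Gencode 38. The strand setting and any removal of mouse reads are not given in the sources used here, so overlapping genes may share reads. Estimated division of reads also leaves paralogs uncertain. Of 60649 gene IDs 60463 matched a symbol in Gencode 44, and positions are from that annotation on GRCh38.

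The deposited expected counts were rounded. Genes were kept by filterByExpr (minimum count 10), libraries were scaled by TMM, and groups were compared with the quasi-likelihood F test of edgeR 4.0.16 in R 4.3.3, in its default form (which equals the legacy form), with Benjamini-Hochberg adjustment over all genes tested and a threshold of 0.05. The SE is the fold change divided by the square root of F. Levels are CPM, which are not per length and are not compared between genes. The pTEADi samples were fitted in the same way, and the difference of the 2 effects in 1 fit of all 12 libraries. The code was tested on simulated data. Counts differed between every pair of libraries of the same group by more than sampling noise, so none was treated as a duplicate. Pairs across groups were not checked in this way.

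The 64 gene lists, the rule for named genes and the comparisons were chosen with earlier results of these data known, and no list was tested as a set. Named genes are the 15 largest rises and falls among called protein-coding genes of at least 5 CPM without overlap, up to 5 called members of each list by smallest p, known YAP/TAZ genes, the 5 genes of at least 20 CPM that moved most without smTEADi 1 and without Vehicle 2, the 10 called genes per direction in no list by smallest p, and genes called for the difference. HERC5 and ROBO4 were chosen after their values were seen, HERC5 for the smallest p among called list members with the motif. CEMIP is named for the difference alone. Some genes that this rule takes are not reported here. Promoters are RefSeq windows, and only those starting near the annotated gene start were considered for display. Alternatives were another scaling, filter, test, rounding, threshold, gene set and spread, the replicate block, and leaving out libraries. The newer quasi-likelihood form of edgeR 4, and leaving out libraries with a spread shared by all 4 groups, were added after seeing the data. DESeq2 1.42.0 and limma 3.58.1 were the other tools.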

Additional observations from a re-analysis of the deposited data

Results flagged for a closer look

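CPT1A and CEMIP were picked out because the effects of SW-682 and of pTEADi on them differed by the test of the difference itself, in edgeR's fit of all 12 libraries. CPT1A, the carnitine palmitoyltransferase of the outer mitochondrial membrane, measured 14.1, 12.2 and 15.5 CPM with SW-682 and 26.2, 24.0 and 26.8 CPM with vehicle. In the other experiment it measured 19.95, 21.6 and 22.8 CPM with pTEADi and 14.3, 18.1 and 14.6 CPM in the controls, so it was lower in 3 of 3 tumours with one inhibitor and higher in 3 of 3 with the other. The difference, SW-682 less pTEADi, was -1.34 ± 0.18 on the log2 scale (adjusted p = 0.0451), and the adjusted p ran from 0.00969 to 0.173 when each library was left out in turn.

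CEMIP, which degrades hyaluronan (GRCh38 chromosome 15, 80779343 to 80951776, plus strand), measured 17.3, 13.5 and 12.5 CPM with SW-682 and 12.8, 15.3 and 14.8 CPM with vehicle, where the groups overlapped. It measured 33.8, 35.8 and 37.5 CPM with pTEADi and 12.7, 15.1 and 14.4 CPM in the controls, a rise in 3 of 3 tumours. The difference was -1.33 ± 0.19 (adjusted p = 0.0451, from 0.00921 to 0.173 without single libraries). The experiments differ in the agent, in doxycycline and in their controls, and which of these the differences follow was not tested.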

How the results depend on the processing

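The count of 816 genes called with SW-682 stayed within 1.5 times under other scalings, a filter of 10 counts in 3 libraries, limma, robust priors, unrounded counts, protein-coding genes alone and the newer quasi-likelihood form (815 to 979). The legacy form listed as an alternative is the default of edgeR 4.0.16 and gave the main values. It was 1893 by DESeq2, 1858 by limma with library weights, 2101 without a filter, 2303 with the spread of all 4 groups, 2343 at an adjusted p of 0.1 and 0 at 0.01 by edgeR, where 4128 had an unadjusted p under 0.05. Without 1 library it ran from 0 to 1622, and with the spread of all 4 groups from 354 to 2944 (2243 without smTEADi 2, 2386 without smTEADi 3). Without smTEADi 1 and Vehicle 2 it was 2073, or 1810 with that spread. The cause of these moves was not tested. The genes called with both inhibitors in the same direction numbered 727, and 1506 by DESeq2, 1602 by limma with weights, 1685 without a filter, 1545 with the shared spread, 1906 at 0.1, 0 at 0.01, and 1644 or, with the shared spread, 1467 without the 2 libraries. Leaving out single libraries gave 0 to 1331, and 330 to 2054 with the shared spread (1701 without smTEADi 2, 1619 without smTEADi 3). With pTEADi 3864 genes were called, 2138 at 0.01, and 2325 to 4379 without single libraries. The difference was called in 2 genes, in 43 by DESeq2, 16 by limma with weights, 377 without a filter, 6 at 0.1, 0 at 0.01, and 0 to 20 without single libraries. No value of the 209 named genes fitted that was called, 162 in all, changed sign in 27 settings. Where libraries were left out this was all but fixed beforehand, since the groups of called genes did not overlap. The labels do not say whether replicate numbers pair the samples, and correlations among 3 libraries per group cannot settle it. The deviations of same-numbered libraries correlated at -0.144, -0.0929 and 0.130 across genes, and smTEADi 1 was most like Vehicle 2 (0.281), so not every sample was most like its own number. With a replicate block 0 genes were called with SW-682 (smallest adjusted p 0.0828, 3570 at an unadjusted p under 0.05), 0 with both inhibitors and 0 for the difference. Genes with few counts, such as CXCL1, ITGB2 and ROBO4, have imprecise fold changes, and CCN2 and ANKRD1 were too low to test.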
